A study of Mus musculus with 30 samples.

Results

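Claudins are the membrane proteins that form the strands of tight junctions, and 8 claudin genes of the colon epithelium were followed across 30 mouse colon libraries: Cldn2, Cldn3, Cldn4, Cldn7, Cldn8, Cldn12, Cldn15 and Cldn23. They were chosen by name, and all 8 were found among the 14475 genes of the deposited table and passed the filter on low values in every comparison. Total RNA depleted of ribosomal RNA had been sequenced from the ascending and from the descending colon of female mice in 3 cages. Each region held 7 control and 8 mutant libraries, and values are FPKM, fragments scaled to gene length and to the mapped reads of the library. The mutants are C1galt1f/f;VillinCre-ERT2;C3GnT-/- mice, in which C1galt1, an enzyme that makes the core 1 O-glycan, is flanked by loxP sites and C3GnT (gene symbol B3gnt6), which makes the core 3 O-glycan, is lost in the germ line. The Villin promoter limits the tamoxifen-inducible Cre recombinase to the gut epithelium. Controls were wild-type littermates, and mutants and controls alike were given tamoxifen for 5 days at a daily 0.5 mg, near 20 mg/kg; tissue was taken 5 or 10 days after the last dose, without a statement of which applied to which mouse. Mice of cage A were 3.4 months old with the strain label C57BL/6 Background. The strain label in the other cages was Mixed BL/6-129SvJ, at 2.6 months in B and 3.2 months in C, so that cage A cannot be told apart from its strain and age. All mice carried the same microbiota. The genotype label of every mutant library, descending ones included, is TM-DKOAsc, and whether the descending epithelium of these mice had lost its O-glycans is not stated in these sources.

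Claudins of neighbouring cells meet in the space between them and decide which ions and how much water pass there. Some form channels: claudin-2 lets small cations and water through, and claudin-15 is a sodium channel of the intestinal junction. Others mainly seal: claudin-3, claudin-4 and claudin-8 lower paracellular ion flow, and claudin-8 is known from sodium-absorbing epithelia such as the distal colon. Claudin-7 is also found along the lateral membrane, where it binds the adhesion protein EpCAM. Claudin-12 lacks the carboxy-terminal PDZ-binding motif through which most claudins bind junction scaffolds, and claudin-23 belongs to differentiated surface cells of the colon.

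The genes lie at scattered places of the GRCm38 genome (GENCODE M21 annotation). Cldn3 (chromosome 5, 134986214 to 134987472) and Cldn4 (chromosome 5, 134945119 to 134946934) are single-exon neighbours that point away from each other, with start sites 39280 bases apart. Cldn15 (136966616 to 136975858) and Cldn12 (5489537 to 5514958) are on the same chromosome 5. Cldn8 (chromosome 16, 88560828 to 88563183) has 1 exon, Cldn7 is at chromosome 11, 69964779 to 69967885, Cldn23 at chromosome 8, 35824712 to 35826559, and Cldn2 at chromosome X, 139800828 to 139811386. RefSeq promoter entries (GRCm38.p6) were matched by symbol for 6 of the 8 genes; Cldn8 and Cldn23 are named only. RefSeq start sites can differ from GENCODE ones, and the Cldn15 window lies inside the GENCODE gene. The 250 bases before the start site are shown for 4 genes: the channel formers Cldn2 and Cldn15, whose regional differences had opposite signs although that of Cldn2 did not pass in controls, and the neighbours Cldn3 and Cldn4. Each is written 5′ to 3′ on the gene's own strand, and capitals mark matches to TGANTCA (the AP-1 motif), TTTATG (CDX), CAAAGTCC (HNF4) or GTTAAT (HNF1) on either strand.
Cldn2, chrX:139800558-139800807, plus strand: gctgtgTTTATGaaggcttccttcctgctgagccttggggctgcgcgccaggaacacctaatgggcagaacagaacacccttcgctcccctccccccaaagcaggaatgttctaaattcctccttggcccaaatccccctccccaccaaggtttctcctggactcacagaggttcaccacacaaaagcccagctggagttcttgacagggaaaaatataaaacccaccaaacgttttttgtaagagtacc
Cldn15, chr5:136967619-136967868, plus strand: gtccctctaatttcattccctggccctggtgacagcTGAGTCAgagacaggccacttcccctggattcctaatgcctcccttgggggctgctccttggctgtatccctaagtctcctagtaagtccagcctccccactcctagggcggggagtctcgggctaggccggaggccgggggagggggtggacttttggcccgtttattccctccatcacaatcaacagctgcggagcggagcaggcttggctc
Cldn3, chr5:134985964-134986213, plus strand: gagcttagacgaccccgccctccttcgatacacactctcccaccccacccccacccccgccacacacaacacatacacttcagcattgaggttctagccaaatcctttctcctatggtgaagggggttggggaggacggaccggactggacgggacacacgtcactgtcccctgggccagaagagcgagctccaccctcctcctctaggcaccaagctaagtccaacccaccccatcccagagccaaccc
Cldn4, chr5:134946935-134947184, minus strand: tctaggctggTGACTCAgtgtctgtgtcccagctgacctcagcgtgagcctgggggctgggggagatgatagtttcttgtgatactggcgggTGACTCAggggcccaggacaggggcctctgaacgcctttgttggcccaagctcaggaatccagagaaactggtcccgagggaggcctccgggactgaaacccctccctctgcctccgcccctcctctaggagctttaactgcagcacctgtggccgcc
Cldn2 held 1 match to TTTATG, and TATAAA (the TATA box motif) began 35 bases before its start site. Cldn4 held 2 matches to TGANTCA, beginning 240 and 158 bases before the start site, and Cldn15 held 1, beginning 214 bases before it. Of 27025 mouse promoter windows of the same length, 6.87% held TGANTCA, 11.1% held TTTATG and 13.0% held TATAAA. The Cldn3 window held none of the 4 capitalised motifs, and GGGCGG (SP and KLF), which 32.9% of the windows held, was found in Cldn3, Cldn4 and Cldn15. Among the windows not shown, some of Cldn7 and of Cldn12 held GGGCGG too. No match to CAAAGTCC, GTTAAT or AACCNGTT (GRHL) was found in any window of the 6 genes.

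Read depth is known here only as an estimate. Taken from the spacing of low FPKM values, it ran from 1.46 to 8.99 M reads per library, lowest in the 3 ascending mutants of cage A (1.46 to 1.6 M). The median over libraries of the reads estimated for 1 claudin ran from 292 for Cldn8 to 3953 for Cldn7. The epithelial markers Epcam, Cdh1, Krt8 and 7 others of that list were detected in every group, with a summed level of 3580.3 to 8407 FPKM, and each library was closer to the mean of its own region than to that of the other region. Of the deleted genes, B3gnt6 was low in most libraries of both genotypes: ascending controls had a median of 0.45 FPKM, with B1 at 9.52 and B2 at 19.5, ascending mutants reached 0.53, descending controls 0.43 and descending mutants 0.06, so that the genotypes overlapped. C1galt1 medians were 36.3 FPKM in ascending controls and 28.8 in ascending mutants, and 33.3 and 30.6 in descending controls and mutants, again with overlap. Across all genes, 37.9% passed in the comparison of regions in controls and 33.7% of those were higher in the ascending colon (median log2 difference of all genes -0.14); with median-of-ratios scaling that share was 53.2% (median -0.01). In mutants the share went from 32.6% to 50.4%. Descending control A2 (number 2 of cage A) and descending mutant C1 stood apart by a low epithelial reference level. It was 8.30 and 8.31 (mean log2 of the 10 epithelial genes), against 8.68 to 9.20 in the other descending libraries. These libraries also correlated least with the mean of their own region in their groups (r = 0.912 and 0.909). With the ascending mean, descending control A2 was at 0.896. Ascending control B1 and mutant B1 stood apart too, their epithelial levels being 9.13 and 8.70. They correlated least with the mean of their own region among ascending controls (r = 0.945) and ascending mutants (r = 0.966), and held the highest Cldn4. Values without the libraries that stood apart are given where they moved a result most. Nothing in the labels says that libraries come from separate animals beyond their numbers, and p-values measure the spread between these libraries, which are bulk tissue: fewer cells of a type and less RNA per cell cannot be told apart.

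Cldn3 and Cldn7 carried most of the claudin RNA. Per length of gene, Cldn3 was the highest in 27 of the 30 libraries, at 479 FPKM on average (99.8th percentile of all genes), and Cldn7 followed at 360 FPKM. Together they made up between 70.6% and 83.8% of the summed FPKM of the 8 genes in every library. Cldn7 was above Cldn4 in 30 of 30 libraries. Below these, the order of the group means differed between regions. In the ascending colon it ran from Cldn4 (94.7 ± 67.2 FPKM, SD, n = 7 controls) over Cldn15, Cldn23 and Cldn2 to Cldn8 (18.5 ± 5.79), and Cldn12 was lowest (10.8 ± 2.10). In descending controls Cldn8 came next after Cldn7, above Cldn2, Cldn4, Cldn23 and Cldn15, with Cldn12 again lowest by mean (17.5 ± 4.38). By median Cldn15 (12.45 FPKM) was below Cldn12 (17.7 FPKM) there, and Cldn15 exceeded Cldn12 in only 3 of 7 descending controls and 3 of 8 descending mutants. Neighbours in these orders overlapped in range in each group, apart from Cldn7 and the gene after it. Cldn4 and Cldn15 kept their order in 5 of 7 ascending controls, Cldn15 and Cldn23 in 4 of 7, and Cldn4 and Cldn2 in 4 of 8 descending mutants.

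**Figure D1:**
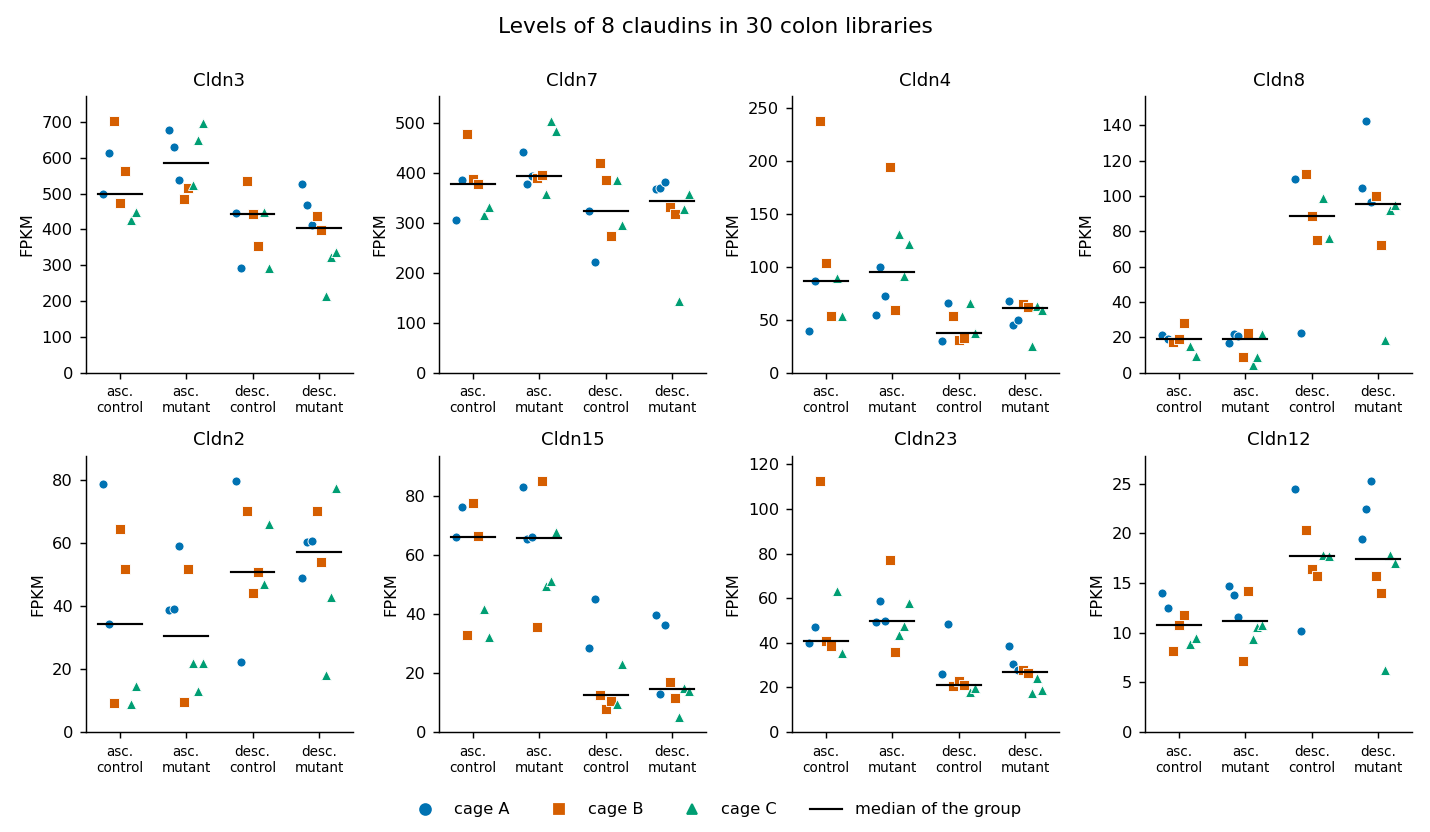
FPKM of the 8 claudins in each of 30 libraries (linear axes starting at 0), by region and genotype, with point shape and colour for the cage and a line at the median of each group. Cldn8 has group medians of 19.0 and 18.8 FPKM in the ascending colon and 88.8 and 95.7 FPKM in the descending colon, with descending control A2 and descending mutant C1 near the ascending level.

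The first comparison set the ascending against the descending colon, separately in 14 control libraries and in 16 mutant libraries, which share no library. Of the 8 claudins, 4 passed in controls: Cldn15 and Cldn23 were higher and Cldn8 and Cldn12 lower in the ascending colon. In mutants 7 passed, the same 4 with the same directions and also Cldn3 and Cldn4 (higher) and Cldn2 (lower). Among all genes tested, 37.9% passed in controls (12.8% higher and 25.1% lower) and 44.0% in mutants (14.3% higher and 29.7% lower), so that 4 of 8 in controls lay near the background. The median log2 difference of the 8 claudins was 0.30 in controls and 0.52 in mutants, beside -0.14 and -0.16 over all genes. No claudin had ranges that did not overlap between regions, whereas 10.7% of all genes in controls and 12.9% in mutants did. Whether the regional difference itself differed between genotypes was tested as an interaction, in which none of the 8 passed.

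**Figure D2:**
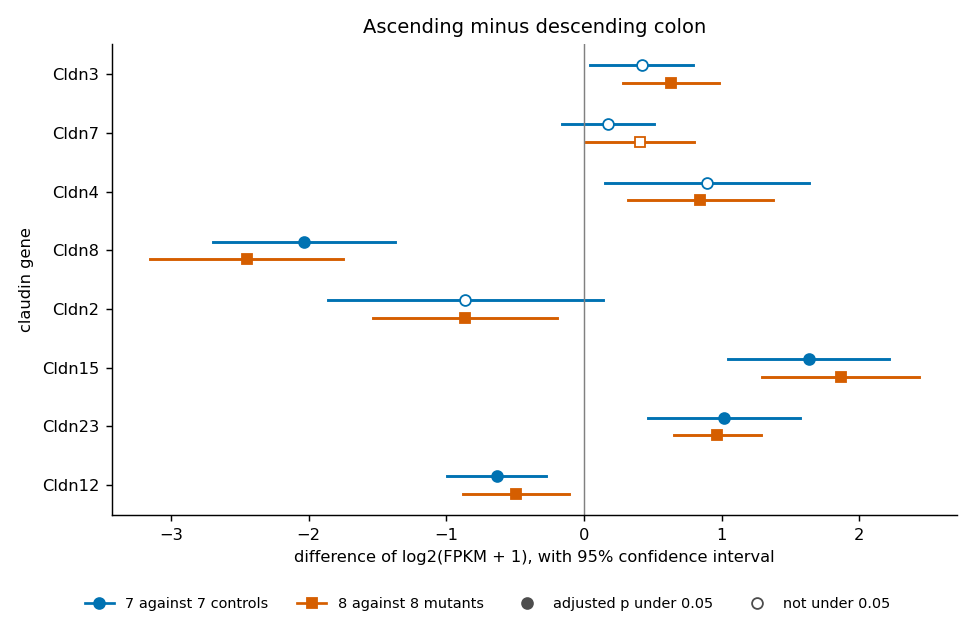
Difference of log2(FPKM + 1) between ascending and descending colon for each claudin in controls (circles) and mutants (squares), with 95% confidence intervals and filled symbols where the adjusted p was under 0.05. Cldn8 lies at -2.03 and -2.45 and Cldn15 at 1.63 and 1.86, while the intervals of Cldn7 and Cldn2 in controls span 0.

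Among the channel formers, Cldn15 rose towards the ascending colon. Ascending controls ranged from 32.3 to 77.6 FPKM with a median of 66.1, and descending controls from 7.98 to 45.2 FPKM with a median of 12.45. Ascending mutants ranged from 35.7 to 85.1 FPKM around 65.7, and descending mutants from 5.03 to 39.6 FPKM around 14.5. Ascending libraries were the high ones, 11 of 15 above every descending library, and the 3 descending libraries above the lowest ascending one were all of cage A. The difference was 1.63 ± 0.27 (SE) in controls, 3.10-fold, adjusted p = 0.000408 by limma, and 1.86 ± 0.27 in mutants, 3.64-fold, adjusted p = 3.40e-05. Its direction was the same in all 3 cages, with log2 differences in cages A, B and C of 0.96, 2.34 and 1.24 for controls and of 1.39, 1.89 and 2.32 for mutants. It passed in all 14 processing alternatives and without any 1 library.

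Cldn2 pointed the other way, with a wide spread. Ascending controls ran from 8.98 to 78.7 FPKM around 34.5 and ascending mutants from 9.61 to 59.2 around 30.4, against 22.2 to 79.7 around 50.8 in descending controls and 18.3 to 77.6 around 57.1 in descending mutants. The groups overlapped over most of their range: 5 of 15 ascending libraries were below every descending one, and only 1 descending library was above every ascending one. The log2 difference was -0.86 ± 0.47 in controls (adjusted p = 0.161) and -0.86 ± 0.31 in mutants (adjusted p = 0.0349). Within controls it was 0.30 in cage A, -0.75 in cage B and -2.18 in cage C, and within mutants -0.32, -1.40 and -1.05. The control value was -1.17 (adjusted p = 0.0374) without descending control A2, -0.55 without ascending control B1 and -0.33 without cage C. The mutant call was lost without any of 6 libraries, the ascending mutant B1 among them (-0.61, adjusted p = 0.0604), and under 7 of 14 other alternatives, median-of-ratios scaling included (-0.71, adjusted p = 0.0732).

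Cldn8, a sealing claudin, had the largest regional difference of the 8 over all libraries, while without cage C the control value was -1.74 for Cldn8 and 1.79 for Cldn15. Cldn8 ranged from 9.43 to 28.25 FPKM around 19.0 in ascending controls and from 4.27 to 22.4 around 18.8 in ascending mutants. Descending controls ranged from 22.1 to 112.5 FPKM around 88.8, and descending mutants from 18.5 to 142.2 around 95.7. Descending libraries were the high ones: 13 of 15 lay above every ascending library, and the other two were descending control A2 (22.1) and descending mutant C1 (18.5). Cldn8 was 4.09-fold lower in the ascending colon of controls (-2.03 ± 0.31, adjusted p = 0.000195) and 5.47-fold lower in mutants (-2.45 ± 0.33, adjusted p = 1.69e-05). All 3 cages gave the same direction, from -1.26 in cage A to -2.77 in cage C among controls and from -2.41 to -2.51 among mutants. Without both of those libraries the differences were -2.35 and -2.70, and the call stood in all alternatives run.

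The other sealing claudins leaned to the ascending colon. Cldn3 ran from 427 to 702 FPKM around 498 in ascending controls and from 292 to 537 around 443 in descending controls; mutants ran from 484 to 696 around 584 and from 214 to 525.99 around 404. Ascending levels were higher with partial overlap, 8 of 15 ascending libraries lying above every descending one. The log2 difference was 0.42 ± 0.17 in controls (adjusted p = 0.0729) and 0.63 ± 0.17 in mutants (adjusted p = 0.00565), the latter 1.55-fold. It lay above 0 in each of the 3 cages in both genotypes; centred on the epithelial reference genes the control difference was 0.52 and passed (adjusted p = 0.00376), and without cage C the mutant difference was 0.34 and did not (adjusted p = 0.0739).

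Cldn4 was low in the descending colon and variable in the ascending colon. Ascending controls ran from 39.15 to 237 FPKM around 86.5 and ascending mutants from 54.4 to 195 around 95.6, while descending controls ran from 29.5 to 66.0 around 36.9 and descending mutants from 25.2 to 68.1 around 61.0. The 2 highest values were those of ascending control B1 and ascending mutant B1, and 10 of 15 ascending libraries lay above all descending ones. The log2 difference was 0.90 ± 0.34 in controls (adjusted p = 0.0547) and 0.84 ± 0.25 in mutants, 1.80-fold (adjusted p = 0.0119), and it lay above 0 in all 3 cages of both. The control value passed without descending control A2 (1.07, adjusted p = 0.0213), without 4 other libraries left out in turn and under 6 of 14 other alternatives. It was 0.63 without ascending control B1 (adjusted p = 0.113) and 0.43 without cage B, and passed in neither fit. Within controls it was 0.39 in cage A, 1.51 in cage B and 0.47 in cage C. In mutants the call was lost without cage C (0.57, adjusted p = 0.151).

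Cldn7, the partner of EpCAM, did not pass in either genotype. Its range was 304 to 477 FPKM around 377 in ascending controls, 221 to 418 around 324 in descending controls, 357 to 502 around 394 in ascending mutants and 143 to 382 around 344 in descending mutants. The ranges overlapped, with 4 of 15 ascending libraries above every descending one. The log2 difference was 0.18 (95% interval -0.16 to 0.51, adjusted p = 0.398) in controls and 0.41 (0.02 to 0.80, adjusted p = 0.0849) in mutants. Without descending mutant C1 the mutant difference was 0.24, without cage C it was 0.18, and without descending control A2 the control difference was 0.10. In mutants it passed when centred on the epithelial reference genes (0.42, adjusted p = 0.00924) or with median-of-ratios scaling (0.56, adjusted p = 0.0250).

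Cldn23 was about 2 times as high in the ascending as in the descending colon. Ascending controls ran from 35.35 to 112 FPKM around 40.9 and ascending mutants from 35.8 to 77.0 around 49.6, whereas descending controls ran from 18.1 to 48.5 around 21.1 and descending mutants from 17.45 to 38.5 around 27.0. The descending libraries were the low ones, 13 of 15 below every ascending library, and descending control A2 held the highest descending value. The difference was 1.02 ± 0.26 in controls (2.03-fold, adjusted p = 0.00715) and 0.97 ± 0.15 in mutants (1.96-fold, adjusted p = 6.53e-05). It lay above 0 in all 3 cages, at 0.27, 1.34 and 1.28 in controls and 0.69, 0.94 and 1.26 in mutants. The control call was lost without cage B (0.78, adjusted p = 0.103) and without cage C (0.91, adjusted p = 0.0697), fits with fewer libraries.

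Cldn12 was the lowest of the 8 in 18 of 30 libraries and higher in the descending colon. Its range was 8.17 to 13.97 FPKM around 10.8 in ascending controls and 7.17 to 14.75 around 11.1 in ascending mutants, and 10.15 to 24.5 around 17.7 in descending controls and 6.27 to 25.3 around 17.45 in descending mutants. Of 15 descending libraries 12 lay above every ascending one, with descending control A2 and descending mutant C1 the lowest of their groups. The difference was -0.63 ± 0.17 in controls (adjusted p = 0.00915) and -0.49 ± 0.18 in mutants (adjusted p = 0.0372), with the same direction in all 3 cages of both. With median-of-ratios scaling it did not pass in controls (-0.48, adjusted p = 0.0520) or mutants (-0.34, adjusted p = 0.136), nor in controls without cage B (adjusted p = 0.163) or cage C (adjusted p = 0.109). In mutants 11 of 16 libraries, left out singly, each ended the call, with a value of -0.41 and adjusted p = 0.0781 without ascending mutant B1.

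Set against each other within a library, Cldn8 and Cldn15 exchanged places along the colon. The ratio of Cldn8 to Cldn15 FPKM ran from 0.245 to 0.530 around 0.325 in ascending controls and from 0.0865 to 0.336 around 0.253 in ascending mutants. In the descending colon it ran from 0.490 to 11.1 around 7.14 in controls and from 2.64 to 11.1 around 6.00 in mutants. Cldn8 exceeded Cldn15 in 14 of 15 descending libraries and in none of the 15 ascending ones, and the exception was descending control A2. As a share of the summed FPKM of the 8 genes, Cldn8 had a median of 1.53% in ascending and 9.04% in descending controls, and Cldn15 of 5.59% and 1.26%. Cldn3 had a median share of 46.9% in ascending and 41.8% in descending controls and Cldn7 of 31.6% and 33.6%. The sum itself was 1172 ± 224 FPKM (SD, n = 7) in ascending and 976 ± 184 in descending controls, with the lowest value of all, 447 FPKM, in descending mutant C1.

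**Figure D3:**
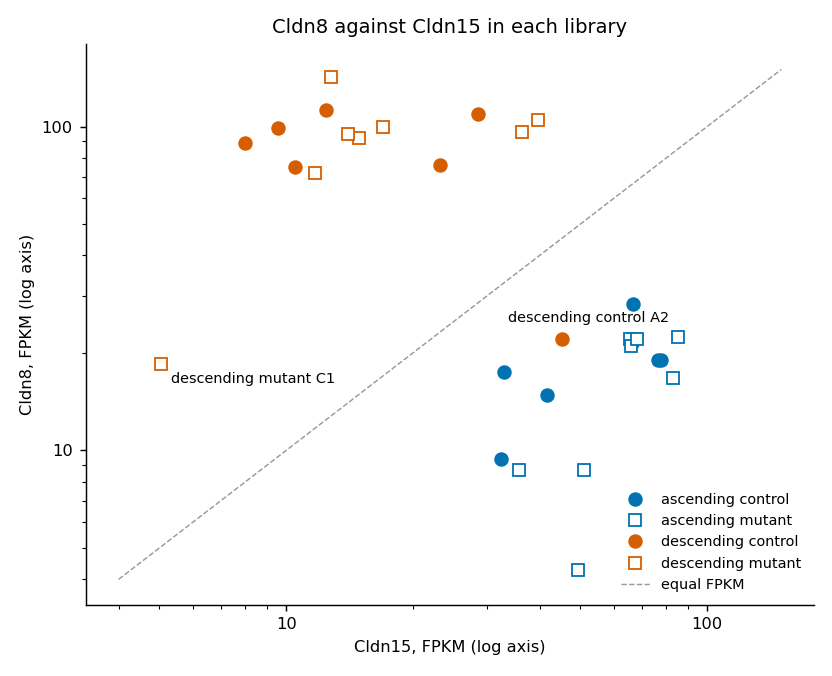
Cldn8 against Cldn15 in FPKM in each of 30 libraries, both axes logarithmic, with the dashed line at equal levels, region by colour and genotype by fill. All 15 ascending libraries lie below the line and 14 of 15 descending libraries above it, with descending control A2 (ratio 0.490) among the ascending points.

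Markers of some other cells differed between regions too. Among all genes tested, 12.8% passed as higher and 25.1% as lower in the ascending colon of controls, and 14.3% and 29.7% in mutants. In controls the smooth muscle and fibroblast markers passed as lower less often than all genes. The muscle sums still had medians of 77.1 FPKM in ascending and 228 FPKM in descending controls, over wide ranges (17.0 to 495 and 38.0 to 511). Those of the fibroblast sums were 62.1 and 60.1 FPKM. Of 6 markers of dividing and crypt base cells, 5 passed as lower in the ascending colon in controls and 5 in mutants (3 and 4 with median-of-ratios scaling), with sums of 47.9 to 78.3 FPKM in ascending and 85.3 to 176 FPKM in descending controls. Surface colonocyte markers were mixed (2 higher and 3 lower of 6 in controls), with sums of 1638 to 5423 FPKM in ascending and 1287 to 2339 FPKM in descending controls. Leukocyte markers passed as higher in 3 of 8 in controls (4 with median-of-ratios scaling), with sums of 26.2 to 187 against 16.4 to 162 FPKM. Smooth muscle markers passed as lower in 1 of 10 in controls and 10 of 10 in mutants, with sums of 12.03 to 65.2 against 42.15 to 326 FPKM in mutants. Fibroblast markers passed as lower in 0 of 8 in controls and 4 of 8 in mutants (2 with median-of-ratios scaling), endothelial markers in 1 of 3 tested in each, and the 1 tested marker of neurons and glia passed as lower in mutants. No marker of these lists was at 0 in all libraries of a group. Their part in the claudin differences was not tested. With the mean log2 of the epithelial reference genes subtracted from each library, 6 claudins were called in controls and 8 in mutants, Cldn8 and Cldn15 among them. Of 12515 genes tested in controls 2275 were then called, against 4744, and of 12203 in mutants 3909, against 5368. This changed the scaling only and was no test of the part of other cells.

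Single genes among the other junction genes passed in both directions. Of 9 other tight junction membrane proteins tested, 1 passed as higher and 4 as lower in the ascending colon of controls (2 and 3 in mutants). Ildr1, an angulin of junctions where 3 cells meet, was higher (1.00 ± 0.12 in controls, adjusted p = 3.59e-05; 1.11 in mutants). Lsr, the angulin known as lipolysis-stimulated receptor, was lower (-1.63 ± 0.23, adjusted p = 0.000117; -1.76 in mutants), as was the adhesion protein Clmp (-1.34 and -1.92). Ildr1 medians were 89.7 FPKM in ascending and 42.0 in descending controls, and those of Lsr 38.0 and 117 FPKM. Among 16 scaffold and polarity genes 1 passed as higher and 4 as lower in controls (3 and 5 in mutants). With median-of-ratios scaling these counts were 2 and 2 in controls and 4 and 1 in mutants, and those of the membrane proteins 1 and 2 in controls and 2 and 2 in mutants. Cgnl1, paracingulin, was lower in both (-0.71 and -1.01, adjusted p = 9.22e-05 and 3.40e-06). Among 11 claudin partners and regulators, 3 passed as higher and 1 as lower in each genotype (4 and 1 in controls with median-of-ratios scaling). The calls among scaffold genes (5 of 16) and partners (4 of 11) in controls were no more frequent than the 37.9% of all genes. St14, the protease matriptase that cleaves EpCAM, and its inhibitor Spint2 were higher (0.48 and 0.40 in controls), the kinase Stk39 was lower (-0.66), and Epcam itself was at -0.03 (adjusted p = 0.922).

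Single transcription factors and sodium channel genes of the epithelium passed as well, in controls in shares (3 of 10 and 2 of 6) below the 37.9% of all genes. Of 10 factors tested, 2 passed as higher and 1 as lower in controls (1 and 1 in mutants). Cdx2, a homeobox factor of the intestine, had medians of 138 FPKM in ascending and 11.1 FPKM in descending controls (3.52 ± 0.46, adjusted p = 5.82e-05; 3.35 in mutants), and Klf5 was lower (-0.57 and -0.60). Of 6 aldosterone and sodium channel genes, 2 passed as lower in controls and 3 in mutants. Scnn1a, a subunit of the epithelial sodium channel, had medians of 23.4 and 70.3 FPKM in controls (-1.33 ± 0.20, adjusted p = 0.000202), and Scnn1g, another subunit, had a median of 0 in both ascending groups and of 7.71 FPKM in descending controls (adjusted p = 0.000761). Every call of these lists that was lost under 1 of the 3 other scalings kept its direction. Klf5 and Stk39 in controls did not pass when centred on the epithelial reference genes, and St14 in controls did not pass when so centred or with quantile normalization.

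The second comparison set mutants, in which O-glycan enzymes are deleted, against controls, and no claudin passed in either region. In the ascending colon 0 of 8 passed, beside 0% of 12178 genes tested, and 0 of 8 had an unadjusted p under 0.05, beside 1396 genes. Log2 differences of mutants to controls ran from -0.29 (Cldn8, 95% interval -0.86 to 0.28) to 0.33 (Cldn4, -0.35 to 1.02), with 6 above 0 and a median of 0.12 beside -0.05 over all genes. Cldn7 had the smallest p (0.21, interval -0.06 to 0.47, adjusted p = 0.539). The 95% intervals of the 8 genes reached from 0.539-fold to 2.02-fold. No claudin separated mutants from controls without overlap, as 0.0985% of all genes did.

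In the descending colon 0 of 8 passed as well, beside 0% of 12219 genes, with 267 genes at an unadjusted p under 0.05 and no claudin among them. The differences ran from -0.16 (Cldn15, interval -0.81 to 0.48) to 0.29 (Cldn4, -0.24 to 0.83), with a median of 0.01 beside -0.04 over all genes. Cldn8 was at 0.14 (-0.73 to 1.01), Cldn2 at 0.03 (-0.62 to 0.68), Cldn3 at -0.01 (-0.42 to 0.39) and Cldn7 at -0.02 (-0.49 to 0.46). The bounds reached from 0.572-fold to 2.02-fold, and no gene of the table (0%) separated the genotypes without overlap. The Cldn8 value had opposite signs without the 2 libraries that stood apart taken singly, -0.27 without descending control A2 and 0.41 without descending mutant C1, and was uncalled in both.

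**Figure D4:**
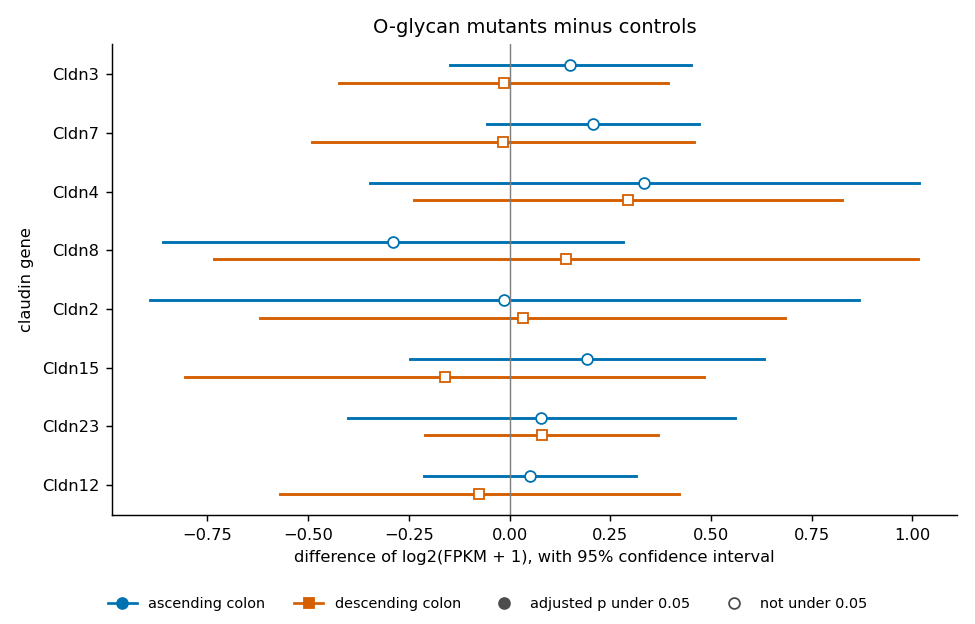
Difference of log2(FPKM + 1) between mutants and controls for each claudin in the ascending (circles) and descending (squares) colon, with 95% confidence intervals. All 16 intervals span 0, and the symbols are open because no adjusted p was under 0.05.

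Within cages the genotype differences had no common direction in the ascending colon for any claudin but Cldn8. Cldn8 lay below 0 in all 3 cages there, at -0.03 (cage A), -0.55 (B) and -0.29 (C). In cage B ascending mutant B1 was at 8.68 FPKM and mutant B2 at 22.4, beside controls of 17.4 to 28.25, and without mutant B1 the ascending difference of Cldn8 was -0.10. The descending values of Cldn8 in the same order were 1.17, -0.10 and -0.65. Cldn4 was 0.33, -0.03 and 0.71 in the ascending colon and 0.26, 0.73 and -0.11 in the descending colon. The difference of the genotype effect between regions passed for 0 of 8, beside 0% of 12353 genes. For Cldn8 it was -0.43 (interval -1.50 to 0.63), and -0.015 without descending control A2. For Cldn15 it was 0.35 (-0.44 to 1.15), and 0.16 without descending control C2. All 10 smooth muscle markers, all 8 fibroblast markers and all tested leukocyte markers lay below 0 in mutants of both regions, with none passing; the muscle medians were -1.11 in the ascending and -0.64 in the descending colon. The sum of muscle markers was 17.0 to 495 FPKM in ascending controls and 12.03 to 65.2 in ascending mutants, and the epithelial reference had a median difference of 0.18 in the ascending colon. The part of these cells in the claudin values was not tested. No gene of the other junction lists passed in either region: of the tight junction membrane proteins 4 of 9 lay above 0 in the ascending colon, of the scaffold and polarity genes 7 of 16 and of the partners and regulators 7 of 11.

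Cage was the other grouping of the libraries, and no claudin passed in the test over the 3 cages. In the ascending colon 1.32% of all genes passed and 0 of 8 claudins. Cldn2 had the widest range of fitted cage means, 1.57 (adjusted p = 0.223): its 5 libraries averaged 50.0 FPKM in cage A (34.5 to 78.7), 37.4 in cage B (9.09 to 64.5) and 16.2 in cage C (8.98 to 22.1). In cage B the low values were those of control B1 (9.09) and mutant B1 (9.61), and the other 3 lay from 51.7 to 64.5. The same 2 libraries held the highest Cldn4 (237 and 195 FPKM) and Cldn23 (112 and 77.0), and low Cldn15 (32.9 and 35.7). Control B1 also had the highest sums of surface colonocyte markers (5423 FPKM) and smooth muscle markers (495 FPKM) among ascending controls. Without both of these libraries 3 claudins passed among cages: Cldn2 (1.83, adjusted p = 0.00183), Cldn15 (0.75, adjusted p = 0.0110) and Cldn12 (0.40, adjusted p = 0.0236). The 2 libraries were left out after their claudin values had been seen, which narrows the spread within cage B. These calls are therefore no test of a cage difference, and the share of all genes passing in that fit is not given here.

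In the descending colon 0.597% of all genes passed among cages and again 0 of 8 claudins. Cldn23 (0.75, adjusted p = 0.101) and Cldn15 (1.33, adjusted p = 0.146) had the smallest adjusted p. Cldn15 averaged 32.5 FPKM in cage A (12.8 to 45.2), 11.9 in cage B (7.98 to 17.0) and 13.3 in cage C (5.03 to 23.2). Cldn23 averaged 34.3 FPKM in cage A (26.01 to 48.5), 23.8 in cage B and 19.6 in cage C (17.45 to 24.1). For both genes 4 of the 5 libraries of cage A lay above every other descending library. The exception was descending control A1 for Cldn23 (26.01 FPKM) and descending mutant A2 for Cldn15 (12.8 FPKM). Of 15 libraries left out in turn, mutant A2 was the only 1 without which Cldn15 passed (1.59, adjusted p = 0.0354). The adjusted p reached 0.347 among these fits. Since mutant A2 was the low library of cage A, that call is no test of a cage difference. Cldn2, by contrast, averaged 54.3, 57.8 and 50.4 FPKM in the 3 cages of the descending colon.

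**Figure D5:**
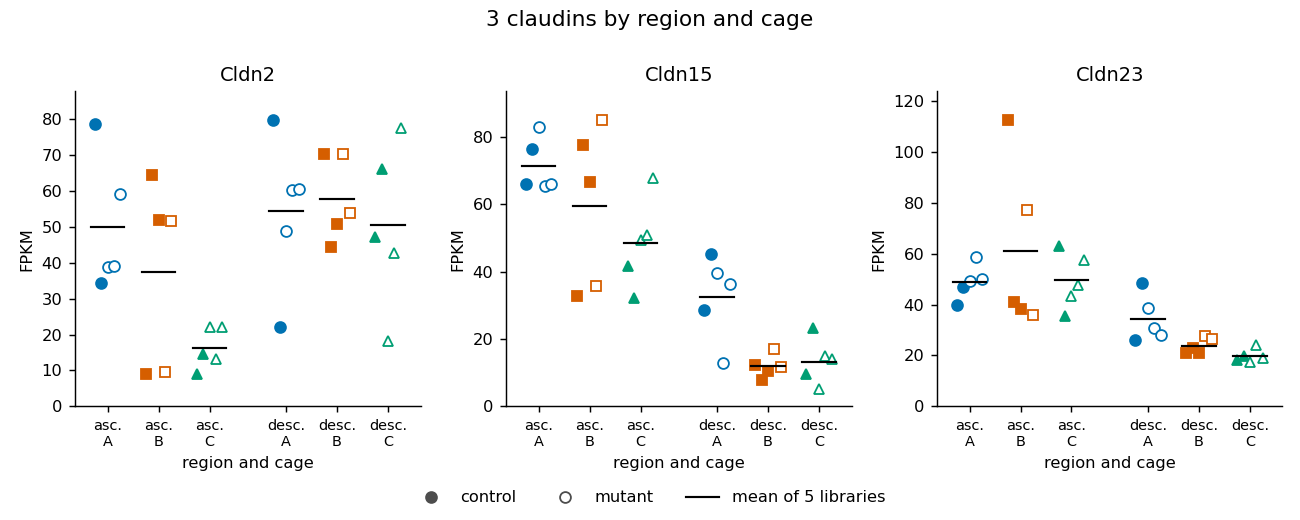
FPKM of Cldn2, Cldn15 and Cldn23 by region and cage (linear axes from 0), filled for controls and open for mutants, with a line at the mean of the 5 libraries. Ascending Cldn2 averages 50.0, 37.4 and 16.2 FPKM in cages A, B and C, and descending Cldn15 averages 32.5, 11.9 and 13.3 FPKM.

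The claudins also varied together between libraries of the same region, genotype and cage. Pearson correlations of the deviations from the 12 region, genotype and cage means, over 30 libraries that share these means, are given as a description. Cldn3 and Cldn7 moved together (r = 0.85), and r was 0.81 over the 24 libraries that remained without the 4 that stood apart and without region, genotype and cage combinations then left with 1 library. Both followed the epithelial reference level (0.90 and 0.90, and 0.86 and 0.88 over the 24). Cldn8 and Cldn12 followed it over the 30 libraries (0.75 and 0.74) and less over the 24 (0.39 and 0.37). Within the descending colon Cldn8 was at 0.93 with it, and at 0.74 without those libraries. Cldn2, Cldn4, Cldn15 and Cldn23 lay from -0.04 to 0.30 over the 30 libraries. Within the descending colon Cldn2 was at 0.79, but at 0.096 without those libraries. Cldn2 and Cldn23 moved in opposite directions (-0.77; -0.50 over the 24). Within the ascending colon r was -0.90 and -0.47 without those libraries, and within the descending colon -0.44 and -0.57. Cldn8 with Cldn12 (0.83), Cldn2 with Cldn12 (0.75) and Cldn4 with Cldn23 (0.79) fell to 0.31, 0.17 and 0.47 without those libraries. Cldn15 and Cldn23, both higher in the ascending colon, were at -0.19 over 30 libraries and 0.31 over the 24.

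For each claudin the genes with the most similar profile were taken from 11384 genes averaging 1 FPKM or more. Over all 30 libraries, where region dominates, Cldn8 was closest to Cd9 (r = 0.98) and Lsr (0.97), Cldn15 to Ddah1 (0.94) and Sdc2 (0.93), and Cldn23 to Sprr1a (0.94) and Krt20 (0.91). Cldn12 was closest to Rab25 (0.95) and Eif3c (0.95), Cldn2 to Rab3d (0.92) and Clps (0.89), Cldn4 to Pard6b (0.86) and Rap2b (0.86), Cldn3 to Prdx5 (0.91) and Chmp2b (0.89), and Cldn7 to Gabarap (0.93) and Perp (0.92). After removal of the 12 means, Cldn7 was closest to S100a10 (0.95) and to its partner Epcam (0.93), and Cldn3 to the epithelial antigen gene Gpa33 (0.91) and the junction molecule F11r (0.90). Cldn8 was then closest to Gpc4 (0.93) and Cd9 (0.92), Cldn12 to Hmox2 (0.97) and Dbt (0.96), Cldn2 to Ncald (0.92) and Mmachc (0.91), Cldn15 to H6pd (0.92) and Yars2 (0.89), Cldn4 to Gprc5a (0.88) and Ifrd1 (0.85), and Cldn23 to Prkx (0.90) and Ier5 (0.89). Without the 4 libraries that stood apart, r of these pairs ran from 0.75 to 0.97 over 26 libraries, and after removal of the means from 0.60 (Cldn4 with Ifrd1) to 0.89 (Cldn3 with Gpa33) over 24.

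Of the claudin family beyond these 8, 5 genes were in the table, all low. Cldn14 had a median of 0.95 FPKM over the 30 libraries and Cldn1, Cldn5, Cldn10 and Cldn20 between 0.12 and 0.37 FPKM. Cldn14 passed as lower in the ascending colon in controls (-0.98 ± 0.26, adjusted p = 0.0104) and in mutants (-1.24 ± 0.17, adjusted p = 2.34e-05), with medians of 0.69 FPKM in ascending and 2.70 FPKM in descending controls. The claudin-domain gene Cldnd1 had a median of 12.6 FPKM.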

How the data were processed

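Total RNA of 30 mouse colon libraries was depleted of ribosomal RNA and sequenced as single reads of 50 bases, per the labels' protocols. The authors deposited 1 table of FPKM with 2 decimals; STAR, DESeq2, bcl2fastq 2.17 and the GRCm38 build are named per the submitters' processing notes, while the counter, gene annotation and any filter are not stated in these sources. Ribosomal depletion keeps RNA without poly(A) tails, and FPKM shares shift when a few genes take many reads. Values were taken as log2(FPKM + 1), so that differences of low genes are understated. Genes averaging 0.5 FPKM or more across a fit's libraries were tested with limma 3.58.1 (R 4.3.3, lmFit and eBayes with trend), two-sided, with cage as covariate (genotype as covariate among cages, where a moderated F test gave p and the range of cage coefficients the size). P-values were adjusted by the Benjamini-Hochberg method over all genes tested and passed under 0.05. Fold changes and intervals are on the log2(FPKM + 1) scale. The fit was also run on simulated data with independent noise for each gene and library. Such data hold no effects shared by the genes of a library, so that run cannot show the rate of false calls here. All 8 claudins are reported; of the other lists (junction proteins, partners, factors, sodium channel genes, other claudins, markers of epithelium, surface colonocytes, dividing cells, muscle, fibroblasts, endothelium, leukocytes, neurons and glia) counts are given and called genes with small adjusted p named. Members and lists were chosen with earlier results of these data known. Depth was estimated from the spacing of low FPKM values, of which 77.3% to 85.1% per library lay near a step, and covers no biological spread. Promoters are the RefSeq windows of GRCm38.p6, gene positions those of GENCODE M21. Alternatives were another pseudocount (0.1), other filters, scalings, covariates and fits, a replicate block, and leaving out cages or libraries; leaving out libraries that stood apart together was chosen after seeing the data.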

Additional observations from a re-analysis of the deposited data

Results flagged for a closer look

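Of 32 combinations of a claudin and a group, 7 held a library far from the rest by Dixon's gap test, which by chance marks about 1 in 20 groups. No ascending library was among them. Descending mutant C1 was the low library of its group for Cldn2 (18.28 FPKM), Cldn4 (25.19), Cldn7 (142.95), Cldn8 (18.54) and Cldn12 (6.27). Descending control A2 was the low library of its group for Cldn8 (22.14 FPKM) and the high one for Cldn23 (48.53 FPKM). Both had the lowest epithelial reference levels of the descending colon (8.31 and 8.30, mean log2), and A2 the highest sum of leukocyte markers among descending controls (162 FPKM). The part of these levels in the claudin values was not tested.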

How the results depend on the processing

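Besides leaving out single libraries, 14 alternatives were run for each comparison of regions. Cldn8 and Cldn15 passed in all of them in both genotypes, and no regional difference of a claudin changed direction in any. Claudins called in controls numbered 2 without cage B and 2 without cage C, against 4, and in mutants 4 without cage C, against 7. Without ascending control B1 and ascending mutant B1, a choice made after seeing the data, 3 claudins passed among cages of the ascending colon, against 0. The share of all genes passing in that fit is not given here, and these calls are no test of a cage difference. Leaving out 1 library gave 0 to 1 claudins passing among cages of the descending colon. No claudin passed in a genotype comparison or in the difference between regions under any alternative.

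Signs of uncalled genotype differences turned as follows, and the cause was not tested. In the ascending colon Cldn2 was 0.032 with median-of-ratios scaling, 0.089 without cage A, 0.21 without cage B and 0.13 without both B1 libraries, and Cldn3 was -0.00082 with quantile normalization, -0.027 centred on epithelial genes and -0.024 without cage C. Centring gave -0.13 for Cldn12 and -0.10 for Cldn23, which was -0.018 without cage A; Cldn15 was -0.0035 without cage C. In the descending colon Cldn2 was -0.081 when centred, -0.15 without cage A, -0.043 without cage B, -0.013 without covariate and -0.036 without descending control A2 and mutant C1. Cldn3 and Cldn7 were 0.037 and 0.037 with median-of-ratios scaling, 0.011 and 0.039 without cage B and 0.15 and 0.18 without cage C, and Cldn7 was 0.0078 without A2 and C1. Cldn23 was -0.034 when centred and -0.033 without cage B, Cldn8 was -0.37 without cage A, Cldn12 was 0.12 without cage C, and Cldn15 was 0.0086 without cage C and 0.14 without A2 and C1.

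The difference between regions turned for Cldn2 to 0.24 without cage A, 0.26 without cage B, 0.10 without both B1 libraries and 0.023 without A2 and C1. For Cldn4 it was -0.023 when centred, -0.35 without cage C, -0.051 without covariate and -0.28 without A2 and C1. For Cldn23 it was 0.20 without cage B, 0.0092 without cage C and 0.019 without both B1 libraries. Without cage C it was -0.17 for Cldn3, -0.093 for Cldn7, -0.12 for Cldn12 and -0.012 for Cldn15.

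With 1 library left out, ascending genotype differences ran from -0.24 to 0.33 for Cldn2, -0.048 to 0.16 for Cldn12 and -0.025 to 0.23 for Cldn23. Descending ones ran from -0.23 to 0.22 for Cldn2, -0.14 to 0.10 for Cldn3, -0.15 to 0.13 for Cldn7, -0.27 to 0.41 for Cldn8, -0.29 to 0.080 for Cldn12 and -0.31 to 0.029 for Cldn15. The difference between regions ran from -0.27 to 0.29 for Cldn2, -0.11 to 0.30 for Cldn4, -0.029 to 0.34 for Cldn12 and -0.14 to 0.16 for Cldn23.

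Same-numbered libraries were not shown to be pairs: 4 of 15 ascending and descending pairs of 1 number correlated over 0.1 (range -0.26 to 0.36), and 4 of 15 libraries correlated best with their own number. With the replicate block 5 claudins passed in controls, beside 4236 of 12515 genes, and 7 in mutants, beside 5219 of 12203. In the genotype comparisons 0 claudins passed with it. There the block joined controls and mutants of 1 cage and number, which are different mice. It turned the ascending genotype difference of Cldn23 to -0.035 and the descending one of Cldn2 to -0.16. Over all genes, calls in controls fell from 4744 to 2275 when centred, to 2069 without cage B and to 2567 without cage C, and in mutants from 5368 to 3528 without cage C. The share of calls higher in the ascending colon was 46.2% with quantile normalization and 56.5% when centred in controls, and 47.5% in mutants with quantile normalization. Estimated depth was lowest in ascending mutants of cage A. The fewest estimated reads of a claudin in any library were 33.8, for Cldn8.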
